A study of Mus musculus with 6 samples.

Results

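The miR-30 family 5p arms are the 5 mature miRNAs mmu-miR-30a-5p, mmu-miR-30b-5p, mmu-miR-30c-5p, mmu-miR-30d-5p and mmu-miR-30e-5p (mmu for mouse, left out below), which were taken by name from the 474 miRNAs listed in every library. They were measured by small RNA sequencing of extracellular vesicles (EVs), small membrane particles shed by cells, from primary hepatocytes, the metabolic cells of the liver, isolated from mice. All mice carried the ApoE knockout, which raises plasma cholesterol and makes mice prone to atherosclerosis, so the controls carried it too. Hepatocytes of mice fed chow gave 3 libraries (Chow-EV) and those of mice fed the diet that the labels call HFHC gave 3 (HFHC-EV). What the diet held and how long it lasted, the age of the mice and how many mice stood behind each library are not stated in the labels. The comparison asked how the diet of the animals was reflected in the miRNA that hepatocytes released.

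A miRNA hairpin is cut into a 5p and a 3p strand, and the strand that is kept guides Argonaute proteins to messenger RNAs that pair with its seed, bases 2 to 8. The miR-30 5p strands share a seed and are thought to act on an overlapping set of targets, while their 3' ends set the members apart. In liver the family is known above all through miR-30c-5p, which in mice represses Mttp, the lipid transfer protein needed to assemble and secrete lipoproteins. miR-30a-5p is known in human cancer cells as a repressor of the autophagy gene BECN1, and miR-30b-5p and miR-30d-5p in human melanoma as repressors of the glycosyltransferase gene GALNT7.

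Mature sequences from RefSeq (GRCm38.p6) matched 3 of the 5 members, miR-30a-5p, miR-30c-5p and miR-30e-5p. They are shown 5' to 3' because the shared seed, in capitals, defines the family, and because how closely the letters agree bears on how reads could be told apart. miR-384-5p is added as the only other mature miRNA with this seed among the 1679 searched.
miR-30a-5p: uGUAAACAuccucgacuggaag
miR-30e-5p: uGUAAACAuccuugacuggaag
miR-30c-5p: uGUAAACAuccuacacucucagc
miR-384-5p: uGUAAACAauuccuaggcaaugu

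The first 12 bases were the same in the 3 family members, and miR-384-5p shared 8 with them. miR-30a-5p and miR-30e-5p, of 22 nt each, differed by 1 base, C13U (the base of miR-30a-5p, its position from the 5' end, then the base of miR-30e-5p). How the authors assigned reads that match several members is not stated in the labels, so the division of reads among such near-identical products is uncertain. miR-30d-5p and miR-30b-5p had no sequence to compare, so their closeness to the other members was not checked. Their levels, and that of miR-30c-5p, may carry the same uncertainty. Letters that have been tied to loading of miRNAs into EVs were searched on the mature strand. GGAG, GGCU and CCCU were each in 0 of the 3 members with a sequence, against 10.6%, 11.2% and 9.77% of the 348 listed miRNAs that had one. With so few members searched, which share their first 12 bases, nothing is concluded from this. miR-30d-5p and miR-30b-5p, with 75.2% and 20.7% of the family's reads, could not be searched.

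The 5 products come from 6 hairpins in 3 places of the genome (GENCODE M21 on GRCm38). Mir30b (chromosome 15, 68337415 to 68337510, minus strand) lies in an exon of the processed transcript Gm26621, and Mir30d (chromosome 15, 68341208 to 68341289, minus strand) in exons of the lincRNA Gm20732 and of Gm37296. Mir30a (chromosome 1, 23272269 to 23272339, plus strand) overlaps no other annotated gene, and Mir30c-2 (chromosome 1, 23291701 to 23291784, plus strand) lies in an exon of the lincRNA Gm27028. Mir30c-1 (chromosome 4, 120769534 to 120769622, minus strand) and Mir30e (chromosome 4, 120772606 to 120772697, minus strand) lie in an intron of Nfyc, which encodes a subunit of the transcription factor NF-Y. miR-30c-5p is the same molecule from Mir30c-1 and Mir30c-2, so its reads have no single origin.

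The deposited values are RPM, reads scaled by the authors to a common total, where 1 read was worth about 0.05 RPM. The listed miRNAs took 27673 to 65775 reads per library. Worked out from the values, the authors' total was 19114700 to 20122300 reads per library. Most reads behind RPM were thus not from listed miRNAs, and what they were is not stated in the labels. The summed RPM of the listed miRNAs was higher in HFHC-EV (2683 ± 665, mean ± SD, n = 3) than in Chow-EV (1662.5 ± 371). A member may therefore rise in RPM while its share of miRNA reads does not. The labelled cell type was checked with 6 hepatocyte miRNAs, of which 5 had reads and miR-101b-3p was at 0. Their summed level was 5.54 to 17.0 RPM over the Chow-EV libraries and 13.5 to 27.3 RPM over the HFHC-EV libraries, but its members differed. miR-122-5p stood at 10.5 and 14.0 RPM in the libraries numbered 1 and at 0.745 to 1.09 RPM in the other 4, whereas miR-192-5p stood at 4.14 to 5.79 RPM in Chow-EV libraries and at 12.4 to 13.0 RPM in HFHC-EV libraries. miR-194-5p, miR-193a-3p and miR-148a-3p stood at 0 to 0.512 RPM. The list thus gave no clear answer on the cell type. The 4 erythroid miRNAs, all with reads, summed to 113 and 148 RPM in the libraries numbered 1 and to 3.62 to 13.1 RPM in the other 4. Of these, miR-486a-5p and miR-486b-5p had the same value in each library, so the sum may count the same reads for both. miR-451a alone stood at 101.7 and 135.5 RPM in the libraries numbered 1. It lay above miR-122-5p in every library and below miR-192-5p in the 4 not numbered 1. The summed level of the 5 immune miRNAs found in the files (of 6) was 7.06 to 22.5 RPM (Chow-EV) and 7.35 to 24.9 RPM (HFHC-EV). That of the 6 endothelial and mesenchymal miRNAs found (of 7) was 1.04 to 7.73 RPM and 4.22 to 13.8 RPM. The part of such RNA in the results below was not tested.

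With reads as the authors assigned them, the family as a whole was carried by miR-30d-5p. Over all 6 libraries 1288 reads fell on the 5 products, of which miR-30d-5p held 75.2%, miR-30b-5p 20.7%, miR-30c-5p 3.42%, miR-30a-5p 0.543% and miR-30e-5p 0.155%. Only miR-30d-5p and miR-30b-5p had reads in every library. In Chow-EV the order of mean levels was miR-30d-5p, miR-30b-5p, miR-30c-5p, miR-30a-5p and miR-30e-5p, and the ranges of the last 3 met or overlapped. The order was the same in HFHC-EV, where miR-30c-5p stood clear of miR-30a-5p, and miR-30a-5p and miR-30e-5p overlapped.

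**Figure D1:**
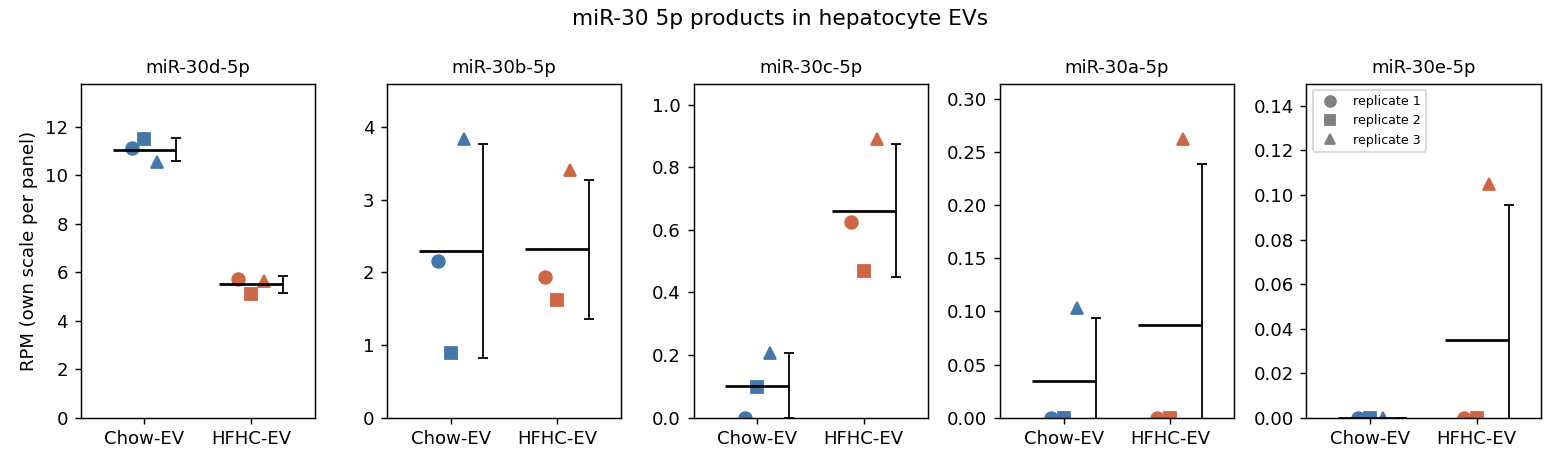
RPM of each miR-30 5p product in the 3 Chow-EV (blue) and 3 HFHC-EV (orange) libraries, with its own linear axis per panel; symbols mark the replicate number, lines the mean and bars the SD, cut off at 0. miR-30d-5p sits between 10.6 and 11.5 RPM for Chow-EV and between 5.11 and 5.74 RPM for HFHC-EV, miR-30c-5p is higher in every HFHC-EV library, and miR-30b-5p overlaps.

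miR-30d-5p fell in EVs of HFHC-fed mice. It stood at 11.1, 11.5 and 10.6 RPM in Chow-EV replicates 1, 2 and 3 and at 5.74, 5.11 and 5.65 RPM in HFHC-EV replicates 1, 2 and 3. All HFHC-EV libraries lay below all Chow-EV libraries, and the replicates of a diet lay close together. The mean went from 11.05 ± 0.467 to 5.50 ± 0.342 RPM (SD, n = 3 each), a ratio of 0.498. Between libraries with the same replicate number the ratio of HFHC-EV to Chow-EV was 0.517, 0.445 and 0.535 in RPM.

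In reads on the near-equal denominators of the authors, miR-30d-5p varied little between replicates. Its reads per library had an SD of 13.5 in Chow-EV, where the square root of the mean count is 14.7, and of 6.43 in HFHC-EV, where it is 10.3. Among all listed miRNAs it ranked 26th, 24th and 35th by RPM in Chow-EV and 44th, 41st and 60th in HFHC-EV (replicates 1 to 3), so it gave up rank in each pair. As a share of the listed miRNA reads it went from 0.689 ± 0.167% in Chow-EV to 0.212 ± 0.0411% in HFHC-EV. On that scale the replicates spread more, with an SD of 24.2% of the mean in Chow-EV and 19.4% in HFHC-EV, where counting alone gives 6.78% and 9.74%.

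In limma-trend on log2(RPM + 1), fitted to the 422 miRNAs with at least 1 read, the log2 fold change of miR-30d-5p was −0.89 (SE 0.16, Benjamini-Hochberg adjusted p = 0.0157), lower in 3 of 3 pairs. In the same fit 60 miRNAs were higher and 22 lower at an adjusted p under 0.05, which is 14.2% and 5.21% of those tested. Of the 38 officially named miRNAs with a mean RPM at or above that of miR-30d-5p, 14 were called higher, and miR-30d-5p was the only one with a log2 fold change below 0. This comparison was chosen after the values were seen, and it depends on the scale. After TMM scaling, which aligns the libraries on the bulk of their miRNAs, 18 of the 38 were below 0, with miR-30d-5p the lowest and the only one called lower.

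With TMM scaling the log2 fold change of miR-30d-5p was −1.55 (limma adjusted p = 0.0296). Over the 104 miRNAs that averaged 1 RPM or more, the median log2 fold change was 0.51 in RPM and −0.0053 after TMM scaling, so miR-30d-5p lay below the median on either scale. The call was lost at adjusted p = 0.0558 in edgeR's quasi-likelihood test on recovered reads without the replicate block (1.0e-16 with it), at 0.0551, 0.0635 and 0.0641 in limma without Chow-EV replicate 1, Chow-EV replicate 2 or HFHC-EV replicate 2, and at 0.122 and 0.226 without both libraries numbered 1 or 2. Over 21 alternatives its adjusted p ran from 1.0e-16 to 0.226 and its log2 fold change from −1.76 to −0.82. The value of 1.0e-16 rests on 6 libraries and should not be read as a measure of strength. With the same block, limma gave an adjusted p of 0.0124 in RPM and 0.0029 after TMM scaling.

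**Figure D2:**
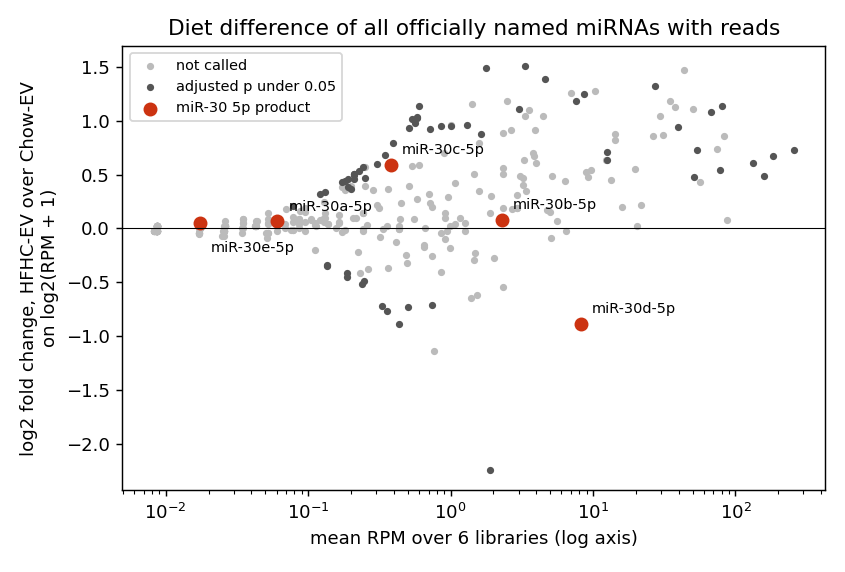
Log2 fold change of HFHC-EV over Chow-EV on log2(RPM + 1) against mean RPM (log axis) for the 365 officially named miRNAs with reads, dark where the limma adjusted p is under 0.05, with the 5 miR-30 5p products in red. miR-30d-5p lies at −0.89 at a mean of 8.27 RPM, where the other miRNAs at or above its level lie above 0.

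miR-30c-5p, the member known for its action on lipoprotein assembly in mouse liver, was the one that rose. It had 0, 2 and 4 reads in Chow-EV replicates 1, 2 and 3 and 12, 9 and 17 reads in HFHC-EV replicates 1, 2 and 3. These reads are 0, 0.099 and 0.207 RPM against 0.626, 0.469 and 0.889 RPM, so every HFHC-EV library lay above every Chow-EV library, at a level near the limit of detection in Chow-EV. The mean went from 0.102 ± 0.104 to 0.661 ± 0.212 RPM (SD, n = 3 each), a 6.48-fold difference, and the counting interval for the ratio of the 38 to the 6 reads ran from 2.73 to 18.8 (exact binomial, 95%, counting error only).

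In the limma fit the log2 fold change of miR-30c-5p was 0.59 (SE 0.15, adjusted p = 0.0453), on a scale that understates the change of low miRNAs. The call was lost with TMM scaling (adjusted p = 0.110, and 0.0246 with TMM scaling and the replicate block), in edgeR (0.389, and 0.0652 with the block), in DESeq2 (0.0657) and without any single library (0.0524 to 0.147). Its log2 fold change was above 0 in all 18 alternatives run, and its share of listed miRNA reads went from 0.00572 ± 0.00514% in Chow-EV to 0.0244 ± 0.00267% in HFHC-EV.

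miR-30b-5p, which lies beside miR-30d-5p on chromosome 15 with 3697 bases between the hairpins, did not pass the test. It stood at 2.15, 0.895 and 3.83 RPM in Chow-EV replicates 1, 2 and 3 and at 1.93, 1.62 and 3.40 RPM in HFHC-EV replicates 1, 2 and 3. The libraries numbered 3 were the highest of each diet and those numbered 2 the lowest, and the diets overlapped throughout. The means were 2.29 ± 1.47 and 2.32 ± 0.953 RPM (SD, n = 3 each), from 134 and 133 reads.

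miR-30b-5p varied between replicates beyond counting error, with an SD of 28.1 reads in Chow-EV where the square root of the mean is 6.68. Its log2 fold change was 0.076 (SE 0.40, 95% interval −0.90 to 1.05, limma adjusted p = 0.966) in the fit without the replicate block. With the block the interval was −0.42 to 0.57 in RPM and −0.88 to 0.046 after TMM scaling. It was −0.42 with TMM scaling (adjusted p = 0.700). Against its neighbour, the log2 ratio of miR-30d-5p to miR-30b-5p was 2.34, 3.61 and 1.45 in Chow-EV and 1.55, 1.63 and 0.72 in HFHC-EV (replicates 1 to 3), so the ratio fell in each pair while the diets overlapped.

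miR-30a-5p and miR-30e-5p, which differ by the single base given above, were close to undetected. miR-30a-5p had 2 reads in Chow-EV against 5 in HFHC-EV, all in the libraries numbered 3, a 2.54-fold ratio with a counting interval from 0.420 to 26.9. miR-30e-5p had 0 reads in Chow-EV, which allows up to 0.0509 RPM over the group (3 reads), and 2 reads in HFHC-EV replicate 3, so no fold is given. Neither passed the limma test (adjusted p = 0.804 and 0.590), and a difference between the diets was not detectable from so few reads. Whether some of their reads were assigned to another member is not stated in the labels.

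Counted together, 1 of the 5 members rose and 1 fell, against 14.2% higher and 5.21% lower among all 422 miRNAs tested. The median log2 fold change was 0.065 over the members and 0.042 over all miRNAs tested. Groups that did not overlap were found for 1 member in each direction, beside 23.2% of all miRNAs higher and 7.82% lower in that sense. Only miR-30d-5p and miR-30b-5p reached a mean of 1 RPM. In the fit restricted to the 104 such miRNAs, miR-30d-5p was called lower (limma adjusted p = 0.0038) and none of the 2 higher, beside 4.81% lower and 24% higher among all of them. Among all 422 miRNAs the calls higher and lower came to 5.92% and 5.21% with TMM scaling, 22.3% and 6.4% with the replicate block, and 15.2% and 12.8% with TMM scaling and the block. In edgeR they came to 0% and 0.474% (13% and 11.8% with the block) and in DESeq2 to 9% and 7.58%, where miR-30d-5p was called lower in DESeq2 (adjusted p = 3.5e-05).

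**Figure D3:**
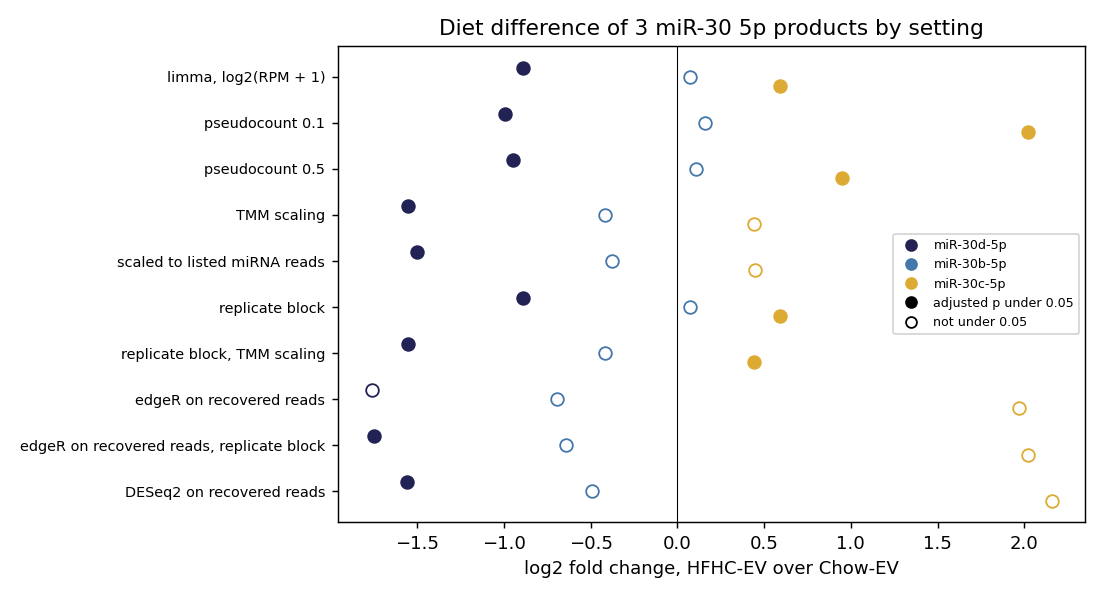
Log2 fold change of HFHC-EV over Chow-EV for miR-30d-5p, miR-30b-5p and miR-30c-5p under 10 settings of the test; filled points have an adjusted p under 0.05. miR-30d-5p stays below 0 and miR-30c-5p above 0 in each, while miR-30b-5p lies at 0.076 in RPM and at −0.42 with TMM scaling.

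The summed level of the family followed miR-30d-5p. It was 13.3, 12.5 and 14.7 RPM in Chow-EV replicates 1, 2 and 3 and 8.29, 7.19 and 10.3 RPM in HFHC-EV replicates 1, 2 and 3, with no overlap. The means were 13.5 ± 1.12 and 8.60 ± 1.58 RPM, and the difference of −4.88 reached the smallest p that 3 against 3 libraries can give (2-sided exact permutation p = 0.1). Paired by replicate number, the exact sign-flip permutation p was 0.25, the smallest that 3 pairs can give. Without miR-30d-5p the sum was 2.43 ± 1.59 RPM (Chow-EV) against 3.10 ± 1.37 RPM (HFHC-EV) (exact permutation p = 0.6), higher in HFHC-EV in 3 of 3 pairs.

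As a share of the listed miRNA reads the 5 products took 0.866% of Chow-EV replicate 1 (exact Clopper-Pearson 95% interval 0.764 to 0.977), 0.907% of replicate 2 (0.799 to 1.03) and 0.706% of replicate 3 (0.627 to 0.793). In HFHC-EV they took 0.345% of replicate 1 (0.293 to 0.403), 0.327% of replicate 2 (0.274 to 0.386) and 0.300% of replicate 3 (0.259 to 0.344). The highest interval of HFHC-EV ended below the lowest of Chow-EV, and these intervals cover counting error only.

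**Figure D4:**
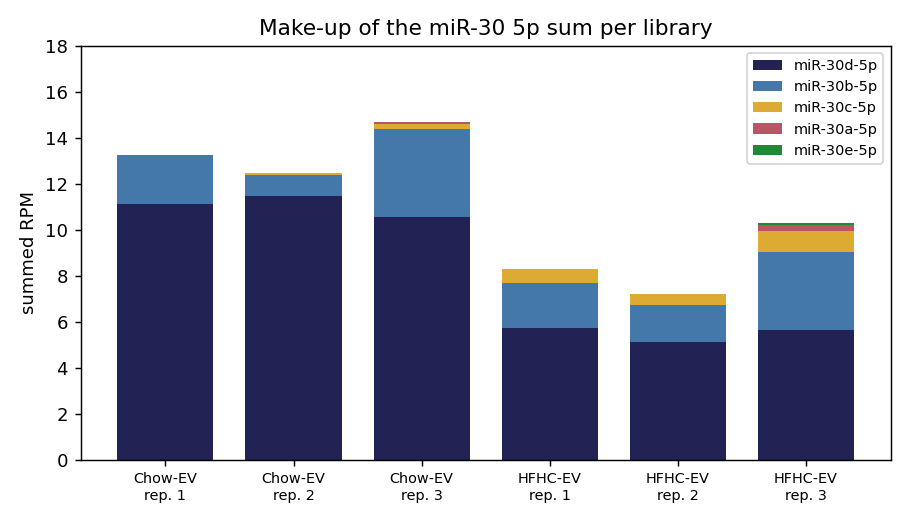
Summed RPM of the 5 miR-30 5p products in each library, stacked by member on a linear axis from 0. The sums run from 12.5 to 14.7 RPM for Chow-EV and from 7.19 to 10.3 RPM for HFHC-EV, and the miR-30d-5p segment is shorter in each HFHC-EV library.

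The make-up of the family also differed between the diets, in a measure that does not depend on how libraries are scaled. miR-30d-5p made up 83.8, 92.0 and 71.8% of the summed RPM of the 5 members in Chow-EV replicates 1, 2 and 3 and 69.2, 71.0 and 54.8% in HFHC-EV. It was lower in HFHC-EV in each pair, and the lowest Chow-EV value lay just above the highest HFHC-EV value. The means were 82.5 ± 10.2% and 65.0 ± 8.87% (2-sided exact permutation p = 0.1). miR-30a-5p, miR-30d-5p and miR-30e-5p, which resemble each other at their 3' ends, together made up 82.8 ± 9.79% and 66.2 ± 6.83%, with the same p. As miR-30a-5p and miR-30e-5p had 7 and 2 reads in all, this mostly restates the share of miR-30d-5p and is no separate result.

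Members were then compared with miR-30d-5p by the log2 ratio of their levels in each library, with 0.05 RPM added, in 4 ratios. The ratio to miR-30c-5p fell from 6.48 ± 1.23 to 3.00 ± 0.365, a difference of −3.48 with no overlap between diets (exact permutation p = 0.1, 0.2 after Benjamini-Hochberg adjustment over the 4). Its size rests on the amount added, since 1 library had 0 reads of miR-30c-5p, and it was −1.89 with 0.5 RPM added. The ratio to miR-30e-5p differed by −1.55 (exact permutation p = 0.1, adjusted 0.2), and since miR-30e-5p is at or near 0 this mostly restates the level of miR-30d-5p. The ratios to miR-30b-5p and miR-30a-5p differed by −1.17 and −1.34 with overlap (exact permutation p = 0.3 each, adjusted 0.3). None can pass 0.05 with 3 against 3 libraries.

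The strand that was recovered differed between hairpins, which is shown for the hairpins with sequences because both strands, in capitals with the 5p strand first, can be placed on them (RefSeq, GRCm38.p6, 5' to 3').
Mir30a: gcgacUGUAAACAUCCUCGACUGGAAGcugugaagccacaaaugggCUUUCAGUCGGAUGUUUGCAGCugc
Mir30c-2: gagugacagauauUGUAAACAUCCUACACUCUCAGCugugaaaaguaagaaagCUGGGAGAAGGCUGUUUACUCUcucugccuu
Mir30c-1: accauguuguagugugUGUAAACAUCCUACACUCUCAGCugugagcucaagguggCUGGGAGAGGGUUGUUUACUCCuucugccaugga
Mir30e: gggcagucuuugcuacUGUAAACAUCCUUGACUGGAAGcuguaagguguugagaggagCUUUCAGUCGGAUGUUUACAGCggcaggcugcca

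Mir30d and Mir30b gave almost only their 5p strand, with 968 reads of miR-30d-5p against 6 of miR-30d-3p and 267 of miR-30b-5p against 1 of miR-30b-3p. Mir30a was recovered mainly as its 3p strand, with 7 reads of miR-30a-5p against 83 of miR-30a-3p over all libraries and more 3p than 5p reads in 6 of 6. miR-30a-3p differs from miR-30e-3p by 1 base, as the 5p strands do. This balance therefore depends on how reads matching several members were assigned, which is not stated in the labels. The 5p share of Mir30a reads was 15.4% in Chow-EV (exact binomial 95% interval 1.92 to 45.4, from 13 reads) and 6.49% in HFHC-EV (2.14 to 14.5). Mir30e had 2 reads of the 5p and 6 of the 3p strand, too few to give a balance.

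The miR-30c strands went opposite ways. Chow-EV replicates 1, 2 and 3 held 0, 2 and 4 reads of miR-30c-5p beside 10, 9 and 8 reads of miR-30c-2-3p, whereas HFHC-EV replicates 1, 2 and 3 held 12, 9 and 17 reads beside 0, 0 and 1. miR-30c-1-3p had 1 read in each diet. The 5p share of all miR-30c reads was thus 17.6% in Chow-EV (exact binomial 95% interval 6.76 to 34.5) and 95% in HFHC-EV (83.1 to 99.4). This comparison was chosen after the values were seen and was not tested across libraries, and the intervals cover counting error only.

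Of the 6 miR-30 3p products, 1 rose and 1 fell in the same limma fit, where 14.2% of all miRNAs tested were higher and 5.21% lower. miR-30a-3p, which the study followed up, had a log2 fold change of 0.93 (adjusted p = 0.0137) and miR-30c-2-3p one of −0.52 (adjusted p = 0.0147). Over all hairpins the 5p products held 93.5, 96.2 and 93.4% of the summed miR-30 RPM in Chow-EV against 85.5, 86.8 and 86.8% in HFHC-EV (replicates 1 to 3), with no overlap. The means were 94.4 ± 1.56% and 86.4 ± 0.753% (2-sided exact permutation p = 0.1), and miR-30d-5p enters this share with the most reads.

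**Figure D5:**
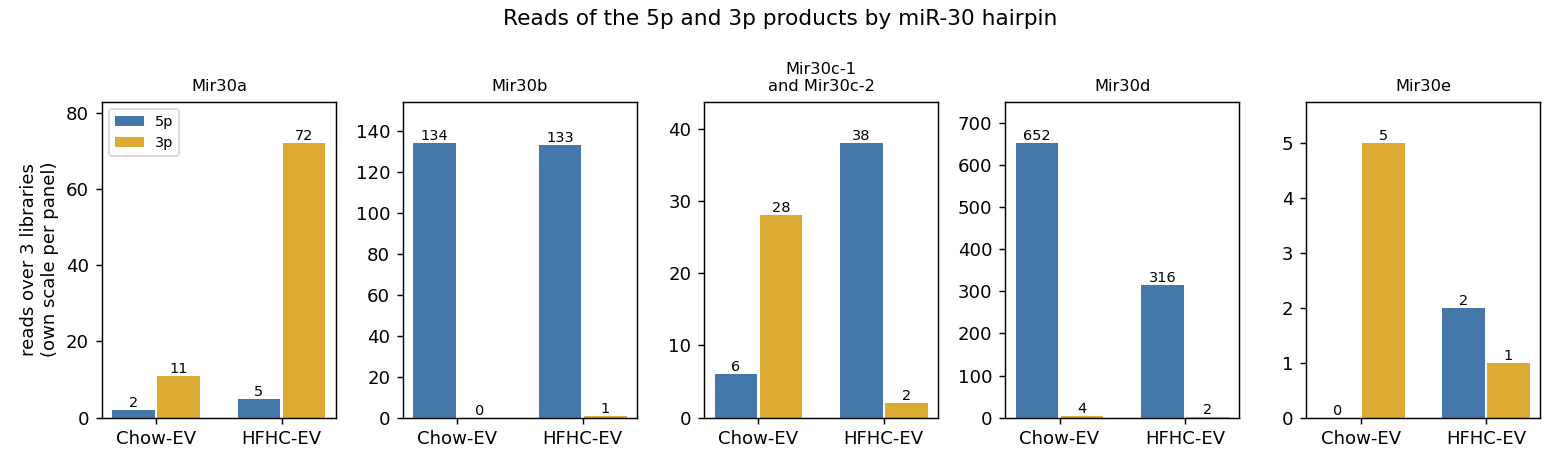
Reads of the 5p (blue) and 3p (yellow) products of each miR-30 hairpin summed over the 3 libraries of a diet, on an own linear axis from 0 per panel, with the count above each bar. Mir30d and Mir30b are almost all 5p, Mir30a is mostly 3p, and the miR-30c products change from 6 reads of 5p and 28 of 3p in Chow-EV to 38 and 2 in HFHC-EV.

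miR-384-5p, a brain-enriched miRNA with the miR-30 seed, was read only in the libraries numbered 3, with 34 reads (1.76 RPM) in Chow-EV and 77 reads (4.03 RPM) in HFHC-EV. The limit that 0 reads allows is 3 reads in each of the other 4 libraries. In HFHC-EV replicate 3 it thus stood above miR-30b-5p (3.40 RPM) and below miR-30d-5p (5.65 RPM) among the miRNAs with this seed. Its diet difference did not pass the test (limma log2 fold change 0.29, adjusted p = 0.890).

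The miRNAs whose pattern over the 6 libraries lay closest to a member were found among the 94 other officially named miRNAs averaging 1 RPM or more, by the root mean square difference of log2(RPM + 1) centred on each mean. For miR-30d-5p these were miR-127-3p (0.242), miR-155-5p (0.311), miR-151-3p (0.316), miR-326-5p (0.346) and miR-374b-5p (0.370), where the median of the 94 was 0.953. Each had a lower mean in HFHC-EV, which largely follows from choosing them by closeness to miR-30d-5p in the same libraries. miR-127-3p, from the imprinted Dlk1-Dio3 region, averaged 2.95 ± 0.563 RPM (Chow-EV) and 1.72 ± 0.541 RPM (HFHC-EV), and miR-151-3p 2.31 ± 0.0211 and 1.74 ± 0.0828 RPM.

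For miR-30b-5p the closest were miR-24-3p (0.179), miR-29b-3p (0.278), miR-16-5p (0.286), miR-93-5p (0.313) and miR-484 (0.331), against a median of 0.569. miR-24-3p stood at 84.2 ± 26.9 RPM (Chow-EV) and 91.1 ± 38.5 RPM (HFHC-EV), again with more spread between replicates than between diets. No miRNA was named for both members, although their hairpins are neighbours on chromosome 15. These likenesses are descriptions over 6 libraries that share their replicate numbers in pairs.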

How the data were processed

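RPM per miRNA was computed by the authors and deposited in 1 table for each library, and every table lists 474 miRNAs. The submitters' processing notes name Bowtie2 and GRCm38.p6, while trimming, the miRNA annotation, the RPM denominator and the treatment of reads matching several miRNAs are not stated there. Per the labels' protocols, RNA of 18–30 nt was cut from a gel, ligated to adapters and amplified by PCR without mention of molecular identifiers, so reads are not independent molecules and intervals cover counting error only. Whole reads were recovered by dividing RPM by the worth of 1 read (100% of values above 0 within 0.1 of a read), on denominators of 19114700 to 20122300 reads.

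Diets were compared with limma-trend (limma 3.58.1, R 4.3.3) on log2(RPM + 1) over all 422 miRNAs with a read, with diet as the only term and Benjamini-Hochberg adjustment at 0.05. Alternatives were a minimum mean of 1 RPM, pseudocounts of 0.1 and 0.5, TMM scaling, scaling to listed reads, edgeR 4.0.16 and DESeq2 1.42.0 on recovered reads, the replicate block, and leaving libraries out. The minimum of 1 RPM with the block or with TMM was added after seeing the data. Single values per library were compared with exact permutation tests (scipy 1.17.1), which ignore the pairing by replicate number. With the pairs kept, the exact sign-flip permutation p was 0.25 for each of these values, the smallest that 3 pairs can give. The fits were also run on simulated counts of independent libraries without an effect of the replicate number. That run therefore cannot show how well the p-values hold for these libraries.

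Named miRNAs are the 5 members, the 3p products, others with the seed, and for each member with a mean of at least 1 RPM the 5 closest in pattern. Members, lists and tests were chosen with earlier results of these data known. The labels call the libraries biological replicates without saying how they were prepared, so p-values measure the spread between these libraries. Every pair of libraries differed by more than sampling noise (lowest chi-square over its degrees of freedom 12.3). Over 104 miRNAs, deviations from the diet means had correlations of 0.945, 0.894 and 0.946 for libraries sharing a replicate number and of −0.819 to 0.0265 otherwise, so the numbers were taken to pair the samples, although no label says what they share. Matching of 1679 mature names to RefSeq gave sequences for 348 of the 474 listed miRNAs.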

Additional observations from a re-analysis of the deposited data

How the results depend on the processing

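Of the results on 1 value per library (the summed level, the member shares, the 5p share and the 4 ratios to miR-30d-5p), all kept their direction under every alternative run, with p from exact permutation tests that cannot pass 0.05. The replicate block changed no call in limma on RPM (miR-30d-5p −0.89, adjusted p = 0.0124; miR-30c-5p 0.59, adjusted p = 0.0248). miR-30d-5p had a log2 fold change of −1.76 in edgeR without the block, −0.91 and −0.82 without both libraries numbered 1 or 2, and −0.92 to −0.85 without each replicate in turn, so members called lower went from 1 to 0 in those of these fits that lost the call. miR-30c-5p stood at 0.44 with TMM scaling, 0.45 scaled to listed miRNA reads, 1.97 in edgeR, 2.02 in edgeR with the replicate block, 2.16 in DESeq2, 0.53 and 0.67 without both libraries numbered 1 or 2, and 0.49 to 0.67 without each replicate, none of them called, so members called higher were 0 there, and 0 of 2 in the fits with a minimum mean of 1 RPM. miR-30b-5p turned to −0.42 with TMM scaling (with or without the block or the minimum), −0.38 scaled to listed reads, −0.70 in edgeR (−0.64 with the block), −0.49 in DESeq2 and −0.12 without both libraries numbered 2, and ran from −0.27 to 0.40 without each replicate. miR-30a-5p ran from −0.047 (without HFHC-EV replicate 3, which holds 5 of its 7 reads) to 0.12 without each replicate, and reached 0.72 in DESeq2, its highest value. Called 3p products numbered 0 in edgeR and without both libraries numbered 1 or 2 in each direction, and higher ones also 0 scaled to listed reads. Without each replicate, members called higher were 0, members called lower and 3p products called higher 0 to 1, and 3p products called lower 1. Other causes were not tested.

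Over all 422 miRNAs the main fit called 60 higher and 22 lower, TMM scaling 25 and 22, the replicate block 94 and 27, TMM scaling with the block 64 and 54, scaling to listed reads 14 and 16, DESeq2 38 and 32, edgeR with the block 55 and 50, and edgeR without it 0 and 2 (45 and 40 at an unadjusted p under 0.05). With about 0.05 RPM per read, miR-30c-5p, miR-30a-5p and miR-30e-5p rest on 44, 7 and 2 reads in all, which limits any statement on them.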
